A study of Mus musculus with 12 samples.

Results

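Immediate early genes are the first genes a cell transcribes when a growth factor, cytokine or stress reaches it. The 10 described here were Fos, Fosb, Jun, Junb, Atf3, Egr1, Klf6, Dusp1, Ier2 and Ier3. They were chosen by symbol as a published class of response genes, with earlier results of these data known. All 10 were among the 21792 genes of the deposited table, and all 10 passed the filter on low values (a mean value of at least 1) with 21322 genes in all. Their transcription needs no new protein: kinases of the MAP kinase pathways activate factors that already sit on the promoters, such as SRF with its ELK partners and CREB, and the RNA is made and degraded quickly. FOS and JUN proteins pair through leucine zippers to form AP-1, which binds DNA and is known in the colon for its role in growth and wound repair, downstream of the EGF receptor and WNT signalling.

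RNA was sequenced from colon tumours of FvB mice that had received azoxymethane, a carcinogen of the colon, at 10 mg/kg by intraperitoneal injection weekly for 6 weeks, and were examined 16 weeks after the first dose. The 4 genotypes were wt, miR-34a deficient (the microRNA miR-34a deleted in intestinal epithelial cells), p53 deficient (p53 deleted in those cells) and double deficient (both deleted), with 3 libraries each. All 4 genotypes share the strain and the carcinogen, and no tissue without tumour was included. The sources used here do not give the driver of the deletions or the number of animals behind a library, and p-values therefore measure the spread between libraries, which may be technical. A bulk tumour also contains cells in which nothing was deleted, and fewer cells of a type and less RNA per cell cannot be told apart in it.

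The values are normalized scores rounded to whole numbers, not read counts, so the depth of the libraries is unknown. Trp53, the gene of p53, had values of 3466 to 5120 in wt and miR-34a deficient tumours and of 401 to 924 in p53 and double deficient tumours, in the direction of the labels. The summed value of 7 epithelial markers was between 460263 and 831174 in all libraries, and no epithelial marker was at 0. The summed value of 4 Y-linked genes was 1 to 4 in the double deficient libraries, 59 to 527 in the p53 deficient ones, and 0 to 173 in the others. Xist held 1.24 to 5.92% of the summed values of a double deficient library and at most 0.00958% in p53 deficient ones. Differences of any gene between double and p53 deficient tumours therefore cannot be told apart from these levels. A single library, p53 deficient 2, stood apart for the immediate early genes, so results are given with and without it. It was singled out by the values of the members themselves. Leaving it out therefore narrows their SE in particular. Counts without it are descriptions, and the shares over all genes beside them are not a like reference. Differences are log2(value + 1) means ± SE from limma over all 12 libraries, a gene passed at a Benjamini-Hochberg adjusted p under 0.05 over all 21322 genes, and each genotype has n = 3.

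Klf6 was the member that separated the genotypes: it was lower in double deficient than in p53 deficient tumours and higher in p53 deficient than in miR-34a deficient tumours. No other member passed in any of the 6 comparisons of 2 genotypes. All 10 members lay lower in miR-34a deficient than in wt tumours, without any passing. The widest differences between single libraries were within the p53 deficient group, where 8 of the 10 members had their highest value of all 12 libraries in p53 deficient 2.

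**Figure D1:**
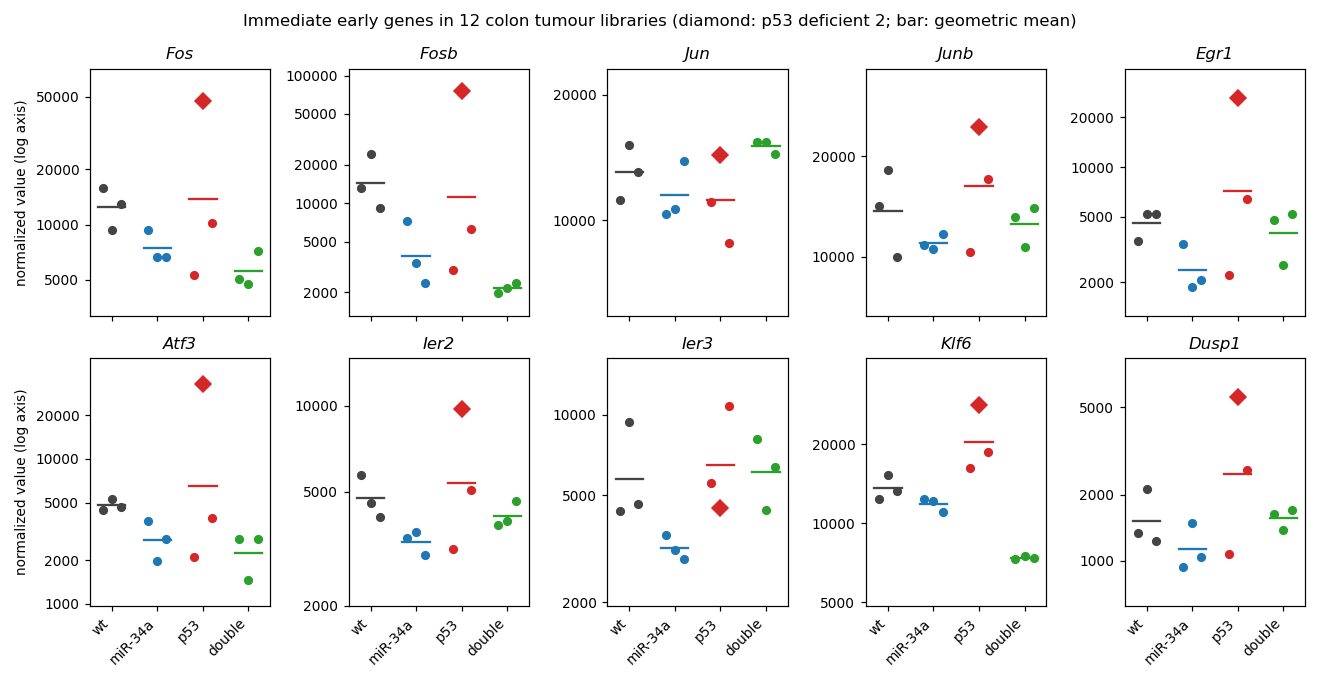
Normalized value (log axis) of each of the 10 immediate early genes in the 12 libraries by genotype; each point is a library, the diamond is p53 deficient 2 and the bar is the geometric mean of 3 libraries. For 8 genes the diamond is the highest point of all, while Jun and Ier3 are not highest there; the 3 double deficient points of Klf6 lie close together between 7280 and 7479.

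The FOS genes encode the AP-1 subunits that need a JUN partner to bind DNA. Fos (ENSMUSG00000021250; GRCm38 chromosome 12, 85473890 to 85477273, plus strand) had values of 15737, 9357 and 13007 in wt tumours. In miR-34a deficient tumours it was at 9398, 6676 and 6680, and in double deficient tumours at 5075, 4759 and 7208. The p53 deficient libraries held 5322, 47366 and 10215. Every double deficient library was thus below every wt library, while the p53 deficient group overlapped with each of the others. The difference between double deficient and wt was -1.15 ± 0.59 (limma, adjusted p = 0.393) and did not pass. Without p53 deficient 2, a library of neither group, the same difference of -1.15 had a SE of 0.28 and adjusted p = 0.0829, because limma shares 1 estimate of the spread over all groups.

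Fosb (ENSMUSG00000003545; chromosome 7, 19302696 to 19310051, minus strand), the closest relative of Fos, spread further. It was at 13089, 24245 and 9234 in wt, at 7192, 3417 and 2348 in miR-34a deficient and at 1962, 2158 and 2382 in double deficient tumours. In p53 deficient tumours it was at 2985, 75592 and 6241. All miR-34a deficient and all double deficient libraries were below all wt libraries, and all double deficient libraries were below all p53 deficient ones. The difference of double deficient from wt was -2.73 ± 0.92 (limma, adjusted p = 0.190), a ratio of 6.62, with a 95% interval from -4.74 to -0.71. With p53 deficient 2 left out it was -2.73 ± 0.44 (limma, adjusted p = 0.0235) and passed, and it also passed when only those 2 genotypes were fitted (adjusted p = 0.0318). The call of Fosb therefore rested on whether that library entered the estimate of the spread. Double deficient tumours differed from p53 deficient ones by -2.37 ± 0.92 (limma, adjusted p = 0.255), and by -0.998 ± 0.50 without p53 deficient 2 (adjusted p = 0.426).

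Fos, Fosb and Atf3 were, with Egr1, the members with the largest excess in p53 deficient 2, and Klf6 was the member that passed between genotypes. The 250 bases before the start sites of these 4 genes are shown for that reason, from RefSeq (GRCm38.p6, the reference strain and not FvB). They are read 5′ to 3′ on the strand of the gene, with motif matches in capitals. Promoters were found for 8 of the 10 members.
Fos, chr12:85473640-85473889, plus strand: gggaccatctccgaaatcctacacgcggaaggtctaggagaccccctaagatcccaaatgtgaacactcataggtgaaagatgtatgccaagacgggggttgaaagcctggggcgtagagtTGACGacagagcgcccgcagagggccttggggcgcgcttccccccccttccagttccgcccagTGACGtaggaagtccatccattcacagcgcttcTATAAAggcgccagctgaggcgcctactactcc
Fosb, chr7:19310046-19310295, minus strand: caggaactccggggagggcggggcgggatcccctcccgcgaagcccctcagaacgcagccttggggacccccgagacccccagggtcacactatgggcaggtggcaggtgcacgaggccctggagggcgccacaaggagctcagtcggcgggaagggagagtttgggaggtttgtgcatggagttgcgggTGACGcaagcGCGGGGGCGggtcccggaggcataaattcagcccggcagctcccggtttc
Atf3, chr1:191183334-191183583, minus strand: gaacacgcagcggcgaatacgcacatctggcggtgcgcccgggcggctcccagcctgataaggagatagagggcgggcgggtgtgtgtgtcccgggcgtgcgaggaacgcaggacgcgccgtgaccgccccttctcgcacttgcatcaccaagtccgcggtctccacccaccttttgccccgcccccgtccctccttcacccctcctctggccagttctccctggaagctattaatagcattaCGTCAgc
Klf6, chr13:5861239-5861488, plus strand: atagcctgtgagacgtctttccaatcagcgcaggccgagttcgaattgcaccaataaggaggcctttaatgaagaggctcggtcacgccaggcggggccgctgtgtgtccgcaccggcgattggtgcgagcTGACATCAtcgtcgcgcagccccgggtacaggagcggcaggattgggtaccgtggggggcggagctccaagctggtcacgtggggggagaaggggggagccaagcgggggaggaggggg

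The capitals mark letters on either strand, which are a description and not a measured site. TGACG, the core that CREB and ATF proteins are known to bind, was in 5 of the 8 promoters (Fos, Fosb, Junb, Atf3 and Dusp1) and in 17.8% of all 32851 RefSeq promoters of this length. In Fos it stood 2 times, 129 to 125 and 66 to 62 bases before the start, and in Atf3 on the opposite strand 7 to 3 bases before it. The whole palindrome TGACGTCA, which contains TGACG, was in Dusp1 alone, 143 to 136 bases before the start, and in 1.55% of all promoters. TGACATCA, a variant known from the Jun promoter, was in Jun (45 to 38 bases before the start) and in Klf6 (119 to 112), and in 2.93% of all. GCGNGGGCG, the letters that EGR proteins bind, was in Fosb alone (50 to 42 bases before the start; 4.7% of all), and TATAAA in Fos alone (33 to 28 bases; 12.4% of all). TGANTCA, the AP-1 letters, and the CArG box bound by SRF were in none of the 8 and in 6.75% and 1.47% of all promoters. A match or its absence in this window says nothing of binding.

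The JUN genes encode the partners of FOS. Jun (ENSMUSG00000052684; chromosome 4, 95049034 to 95052222, minus strand) had the lowest ratio of highest to lowest value of the 10 members, 1.74, with values between 8845 and 15423 in all 12 libraries. In double deficient tumours it was at 15394, 15423 and 14447, in p53 deficient tumours at 11074, 14363 and 8845, and in miR-34a deficient tumours at 10328, 10624 and 13873. All double deficient libraries were above all libraries of both single deletions, but not above wt 2 (15162). Jun differed by 0.43 ± 0.19 between double and p53 deficient tumours (limma, adjusted p = 0.306) and by 0.39 ± 0.19 between double and miR-34a deficient tumours (adjusted p = 0.296), and passed in neither. Its direction in those 2 comparisons was opposite to that of Fos and Fosb, whose differences were below 0.

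Junb (ENSMUSG00000052837; chromosome 8, 84974484 to 84978718, minus strand), the other JUN gene of the list, was at 14179, 18244 and 9985 in wt tumours. The p53 deficient tumours were at 10325, 24455 and 17140, miR-34a deficient ones at 10837, 10561 and 11692, and double deficient ones at 13167, 10695 and 13986. No 2 genotypes were apart for Junb. Its differences in the 6 comparisons lay between -0.38 and 0.56, and the lowest adjusted p was 0.260 by limma, for p53 against miR-34a deficient tumours.

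Atf3 (ENSMUSG00000026628; chromosome 1, 191170296 to 191218039, minus strand) encodes a stress-induced factor of the ATF family that also pairs with JUN proteins. Its wt values of 4432, 5289 and 4687 were all above the miR-34a deficient values of 3738, 1964 and 2807 and the double deficient values of 2792, 1456 and 2792. The p53 deficient values of 2116, 32930 and 3946 lay on both sides of wt. Atf3 differed from wt by -1.09 ± 0.76 in double deficient tumours (limma, adjusted p = 0.545) and by -1.09 ± 0.32 without p53 deficient 2 (adjusted p = 0.133).

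Klf6 (ENSMUSG00000000078; chromosome 13, 5861482 to 5870394, plus strand) encodes a zinc finger factor that binds GC-rich promoters and is known as an early response gene and a growth inhibitor. Its values were 12349, 15265 and 13223 in wt and 12353, 12100 and 11003 in miR-34a deficient tumours. They were 16179, 28200 and 18734 in p53 deficient and 7280, 7479 and 7401 in double deficient tumours. The order of genotypes was thus double deficient, miR-34a deficient, wt and p53 deficient from low to high, and only the neighbours miR-34a deficient and wt overlapped. The highest double deficient library was below the lowest library of every other genotype.

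Klf6 fell by 1.47 ± 0.18 on the log2 scale in double deficient against p53 deficient tumours (limma, adjusted p = 0.00424), a ratio of 2.77 with a 95% interval of the difference from -1.86 to -1.08. It was the 1 of 10 members called lower there, where 0.380% of all genes were. Against miR-34a deficient tumours Klf6 rose by 0.79 ± 0.18 in p53 deficient ones (limma, adjusted p = 0.0385), a ratio of 1.73, where 1 of 10 members and 1.13% of all genes were called higher. Against wt, the double deficient difference of -0.88 ± 0.18 just missed the threshold (limma, adjusted p = 0.0508), and p53 deficient tumours were at 0.59 ± 0.18 (adjusted p = 0.171). Double deficient tumours differed from miR-34a deficient ones by -0.68 ± 0.18 (limma, adjusted p = 0.0922).

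Without p53 deficient 2, Klf6 passed as lower in double deficient tumours in all 3 comparisons: by -0.88 ± 0.11 against wt (limma, adjusted p = 0.00955), -0.68 ± 0.11 against miR-34a deficient (adjusted p = 0.0266) and -1.24 ± 0.13 against p53 deficient (adjusted p = 0.00446). Its difference between p53 and miR-34a deficient tumours was 0.56 ± 0.13 and no longer passed (adjusted p = 0.0704). That call was also lost without p53 deficient 3 (adjusted p = 0.0865), without each miR-34a deficient library (0.0883 to 0.124) and without double deficient 2 or 3 (0.0534 and 0.067). With the mean log2 level of the Y-linked genes taken into the fit, the double against p53 deficient difference of -1.44 ± 0.28 did not pass (limma, adjusted p = 0.236). On that measure the 2 groups did not overlap (0.25 to 0.79 against 3.73 to 6.98), so Klf6 and the Y-linked level cannot be told apart there. Fitted with those 2 genotypes alone it also missed the threshold (adjusted p = 0.0976).

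**Figure D2:**
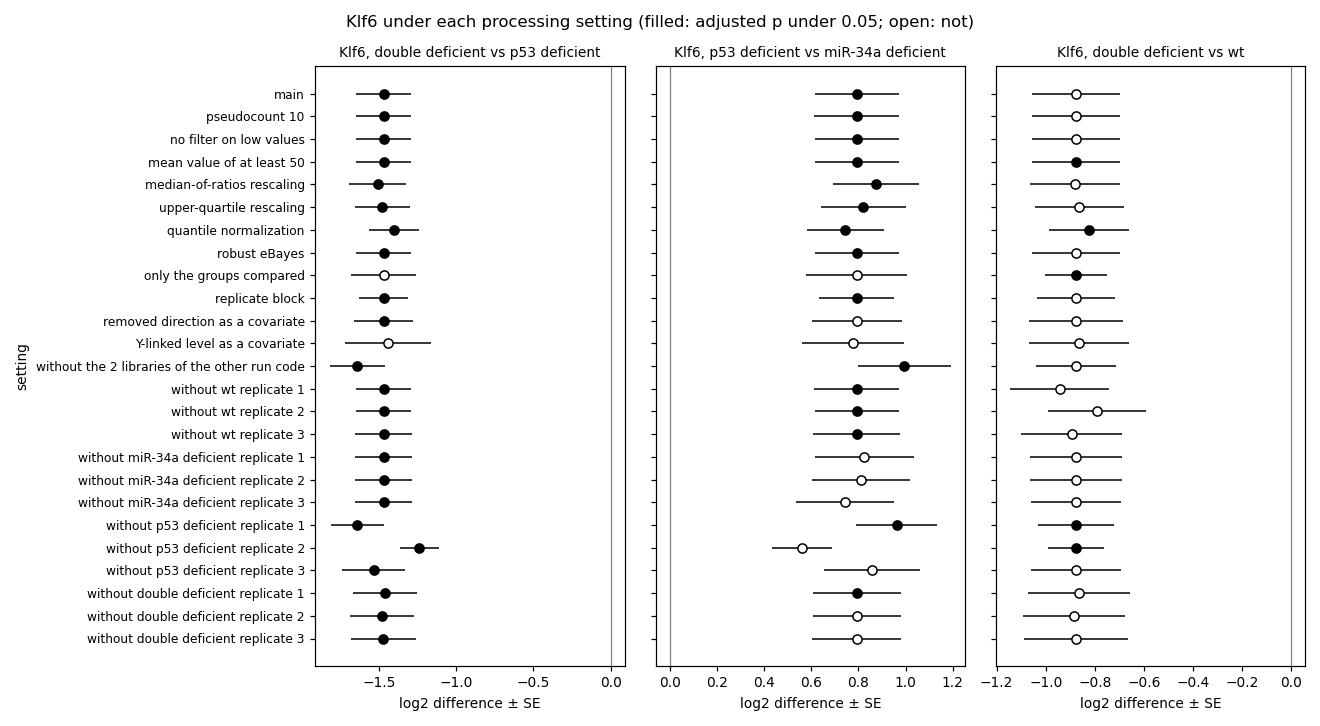
Log2 difference ± SE of Klf6 in 3 comparisons under each processing setting and with each library left out; filled points have an adjusted p under 0.05. The difference between double and p53 deficient tumours lies between -1.64 and -1.24 under the 24 alternatives and passes under 22, while that between p53 and miR-34a deficient tumours passes under 14 and that between double deficient and wt tumours under 5.

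Cell type markers differed between the same groups. The summed value of the 7 epithelial markers was 547176 to 600127 in double deficient and 614341 to 831174 in p53 deficient tumours. That of 5 endothelial markers was 1084 to 1873 against 599 to 963, and that of 5 macrophage markers 1952 to 4096 against 1366 to 1701. These 3 sums did not overlap between the groups, and 0 of the 17 marker genes passed by limma. The mean log2 level of the epithelial genes did overlap, at 15.83 to 16.06 in double and 15.99 to 16.36 in p53 deficient tumours. Of these 7 genes, 2 were lower without overlap (8.89% of all genes). The mean log2 levels of the endothelial and macrophage genes did not overlap. No marker of the 3 lists was at 0 in any library. In miR-34a deficient tumours, the other group compared with p53 deficient ones above, the epithelial sum was 460263 to 556522, the macrophage sum 2569 to 3907 and the fibroblast sum 28599 to 42639 against 9800 to 25267 in p53 deficient ones. All 6 fibroblast genes lay below 0 in p53 against miR-34a deficient tumours, with a median of -0.90. In double against p53 deficient tumours all 5 mast cell genes lay above 0 with an unadjusted p under 0.05, where 15.1% of all genes had one, and their median was 2.22; their sums of 6208 to 45279 and 1809 to 7174 overlapped and none passed. The part of these cells in the Klf6 values was not tested.

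Egr1 (ENSMUSG00000038418; chromosome 18, 34859823 to 34864984, plus strand) encodes a zinc finger factor that responds to growth factors through SRF and ELK proteins. It was at 3584, 5232 and 5191 in wt tumours, all above the miR-34a deficient values of 3405, 1883 and 2079. The p53 deficient libraries were at 2218, 26313 and 6365 and the double deficient ones at 4812, 2549 and 5199. Its largest difference was 1.60 ± 0.68 between p53 and miR-34a deficient tumours (limma, adjusted p = 0.187), which was 0.66 ± 0.45 without p53 deficient 2.

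Dusp1 (ENSMUSG00000024190; chromosome 17, 26505590 to 26562128, minus strand) encodes the phosphatase that switches MAP kinases off again. Its values were 1333, 2121 and 1223 in wt and 1074, 5567 and 2582 in p53 deficient tumours. The miR-34a deficient libraries held 933, 1484 and 1034 and the double deficient ones 1630, 1373 and 1697. Every genotype overlapped with every other, and the largest difference, 1.14 ± 0.46 between p53 and miR-34a deficient tumours, did not pass (limma, adjusted p = 0.172).

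Ier2 (ENSMUSG00000053560; chromosome 8, 84661331 to 84662852, minus strand) and Ier3 (ENSMUSG00000003541; chromosome 17, 35821684 to 35822923, plus strand) encode short-lived proteins, and IER3 is known to act on cell survival. Ier2 was at 5736, 4576 and 4096 in wt, all above 3452, 3633 and 2996 in miR-34a deficient tumours. Its double deficient values of 3830, 3952 and 4637 were above all miR-34a deficient ones too, and its p53 deficient values were 3148, 9777 and 5095. None of its 6 differences passed, and the lowest adjusted p by limma was 0.220.

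Ier3 was the member lowest in miR-34a deficient tumours against all the other genotypes. It was at 3563, 3117 and 2907 there, against 4389, 9407 and 4655 in wt, 5584, 4496 and 10813 in p53 deficient and 8153, 4417 and 6380 in double deficient tumours. No miR-34a deficient library overlapped with any other group. The differences were -0.86 ± 0.36 from wt, with double deficient tumours 0.94 ± 0.36 and p53 deficient tumours 1.02 ± 0.36 above it (limma, adjusted p = 0.778, 0.198 and 0.123), and none passed. Ier3 was also not raised in p53 deficient 2, where its value of 4496 was the lowest of the 3 p53 deficient libraries.

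In miR-34a deficient against wt tumours all 10 differences were below 0, where 45.7% of all genes were, and their median was -0.62 against 0.03 over all genes. In 5 of the 10 (Fosb, Egr1, Atf3, Ier2 and Ier3) every miR-34a deficient library was below every wt library, which held for 3.57% of all genes. By limma 0 of 10 passed, where 0.0375% of all genes did, and 1 of 10 had an unadjusted p under 0.05, where 6.09% of all genes did. Without p53 deficient 2 the 10 differences were the same, and 6 of 10 had an unadjusted p under 0.05 (6.79% of all genes) but again 0 passed (0.0281% of all genes). The rise to 6 followed from a narrower SE after removal of a library singled out by these members, so 6.79% is not a like reference. The endothelial sum was 945 to 1472 in miR-34a deficient and 437 to 781 in wt tumours. All 7 epithelial genes lay below 0, with a median of -0.22, as did 3 of 4 B and plasma cell genes. All genes of the endothelial, smooth muscle, fibroblast, macrophage, neutrophil, T cell and mast cell lists lay above 0. None of these markers passed by limma, and the part of these cells in the differences of the members was not tested.

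In p53 deficient against wt tumours the direction depended on a single library. With all libraries 8 of 10 members lay above 0 (46.2% of all genes), with a median of 0.21 against -0.04 over all genes. By limma 0 passed (0.0234% of all genes), and 1 of 10, Klf6, had an unadjusted p under 0.05 (15.3% of all genes). When that library was left out only 3 of 10 (Ier3, Klf6 and Dusp1) lay above 0, where 47.2% of all genes did, and the median was -0.27. Fos went from 0.14 ± 0.59 to -0.75 ± 0.31 and Atf3 from 0.44 ± 0.76 to -0.73 ± 0.36.

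Double deficient tumours were lower than wt in 7 of 10 members (48.3% of all genes), with a median of -0.20 against 0.02 over all genes. Fos, Fosb, Atf3 and Klf6 did not overlap with wt, 4 of 10 where 10.1% of all genes were lower without overlap. By limma 0 passed (0.802% of all genes) and 2, Fosb and Klf6, had an unadjusted p under 0.05 (15.3% of all genes). Both passed without p53 deficient 2, 2 of 10 where 1.22% of all genes did. That library was singled out by the members, so this share is not a like reference. Markers of other cells also differed between these groups. The summed endothelial markers were at 1084 to 1873 in double deficient and 437 to 781 in wt tumours, and the neutrophil markers at 678 to 972 and 65 to 217, with Cdh5 and Retnlg passing as higher (limma, adjusted p = 0.0371 and 0.0483). The heat shock sum was 112091 to 153239 in double deficient and 181522 to 227756 in wt tumours, without overlap, and 7 of 7 heat shock genes lay below 0 with a median of -0.96, none passing. Their part in the differences of the members was not tested.

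Against miR-34a deficient tumours, double deficient ones were higher without overlap for Jun, Ier2 and Ier3, 3 of 10 (13.0% of all genes), and lower without overlap for Klf6, 1 of 10 (14.3%). The median was 0.24 against -0.06 over all genes. None passed by limma (0.905% of all genes), and 2 of 10, Ier3 and Klf6, had an unadjusted p under 0.05 (18.0% of all genes). Klf6 alone passed without p53 deficient 2, where 1.15% of all genes did.

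Double deficient tumours lay below p53 deficient ones for 9 of 10 members (44.8% of all genes), all but Jun, with a median of -0.76 against 0.05 over all genes. Only Fosb and Klf6 were lower without overlap, 2 of 10 (8.89% of all genes). When p53 deficient 2 was left out, 7 of 10 lay below 0 (46.1% of all genes), the median was -0.22, and Klf6 was again the 1 that passed (0.183% of all genes were called lower). The comparison of p53 with miR-34a deficient tumours had 9 of 10 members above 0 (42.6% of all genes), a median of 0.95 against -0.10 over all genes, and 2 of 10, Ier3 and Klf6, higher without overlap (11.1% of all genes). With that library left out, 8 of 10 lay above 0 (43.8% of all genes), the median was 0.26 and 0 passed (0.239% of all genes were called higher). With p53 deficient 1 left out instead, 4 of 10 passed as higher (2.07% of all genes): Egr1, Ier2, Klf6 and Dusp1, with limma adjusted p of 0.0294, 0.0386, 0.0157 and 0.021. That fit keeps p53 deficient 2, where these 4 genes had their highest value of all libraries. It is named for the members' own count among the fits that left out a library, so 2.07% is not a like reference. The 2 comparisons share the p53 deficient libraries, and those with wt share the wt libraries.

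Whether the effect of 1 deletion depended on the other was tested as an interaction. None of the 10 members passed by limma (0.0234% of all genes), and Jun and Klf6 had an unadjusted p under 0.05 (7.89% of all genes). The interaction was -1.27 ± 0.25 for Klf6 (limma, adjusted p = 0.259) and 0.61 ± 0.26 for Jun (adjusted p = 0.602). An interaction includes the difference of double from p53 deficient tumours, which cannot be told apart from the Y-linked levels. Of the 10 interactions 4 were above 0 with all libraries and 9 without p53 deficient 2 (49.3% of all genes), when Klf6 alone was below 0 at -1.04 ± 0.17.

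**Figure D3:**
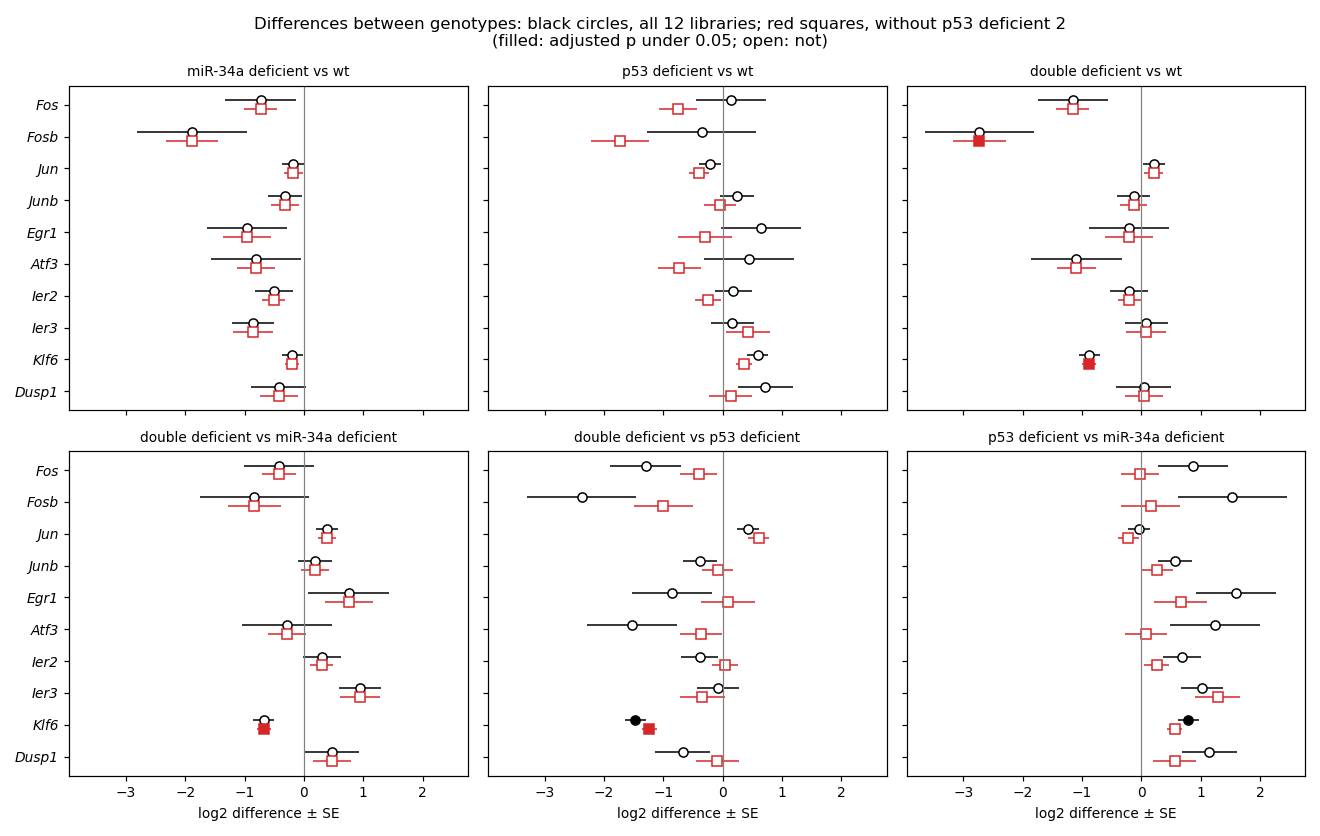
Log2 difference ± SE of each member in 6 comparisons of genotypes, with all 12 libraries (black circles) and without p53 deficient 2 (red squares); filled points have an adjusted p under 0.05. Leaving that library out turns Fos, Junb, Egr1, Atf3 and Ier2 from above to below 0 in p53 deficient against wt tumours.

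The library p53 deficient 2 had a mean log2 level of 14.2 over the 10 members, against 12.0 to 13.1 in the other 11. Fosb was 22.1 times the median of the other 11 libraries there, and 0.0563% of all tested genes lay as far above on the log2 scale. For Atf3 the ratio was 11.7, for Egr1 7.34 and for Fos 6.57. Dusp1 was at 4.05 times, Ier2 at 2.47, Klf6 at 2.28 and Junb at 2.09. The members that did not share the excess were Jun at 1.10 and Ier3 at 0.97 times. Highest of all libraries in p53 deficient 2 were 8 of 10 members and 12.2% of all tested genes. The other p53 deficient libraries, with means of 12.1 and 12.9, lay within the range of the wt, miR-34a and double deficient ones.

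**Figure D4:**
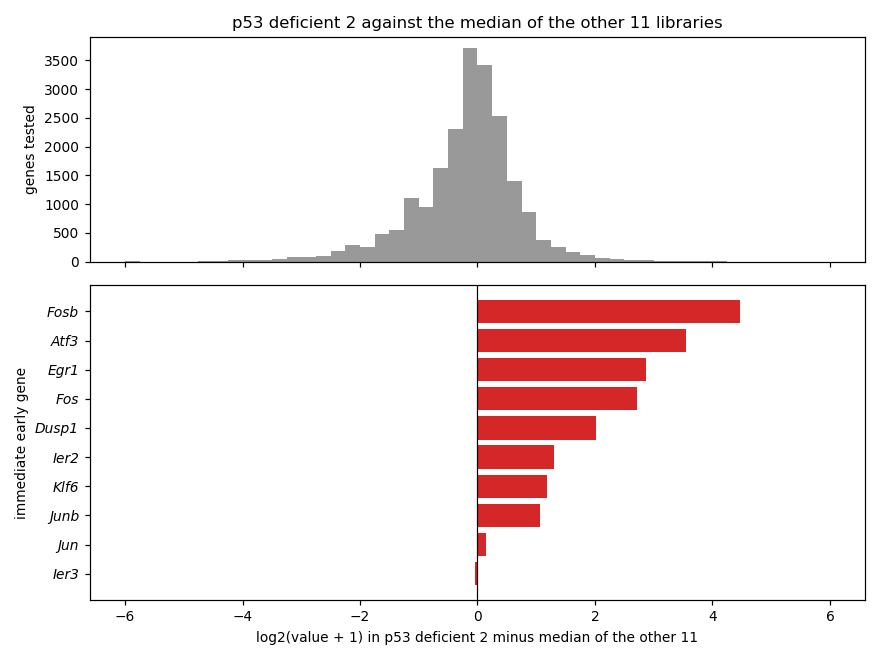
Upper panel, number of tested genes by their log2 difference in p53 deficient 2 from the median of the other 11 libraries (values beyond 6 are in the end bins); lower panel, the same difference for each of the 10 members. The members range from -0.05 for Ier3 to 4.47 for Fosb, with a median of 1.66, while the median of all genes is -0.05.

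Other lists also held extreme values in that library. The share of all genes with their lowest value there was not taken, so counts of lowest genes have no reference. The share of all tested genes with their highest value there was 12.2%. The summed value of 6 posterior Hox genes, which mark the position along the gut, was 20253 there and 53917 to 2769296 in the other 11. The list was divided: 4 of its 6 genes were lowest there, with Hoxd13 at 1203 against at least 39309, while Hoxb13 was highest at 18467 against at most 11218. The mast cell sum of 1809 was the lowest of the 12, with 4 of 5 mast cell genes lowest there. The epithelial sum of 831174 was the highest, but only 3 of 7 epithelial genes were highest there. The mean log2 level of the epithelial genes, 16.34, was below the 16.36 of p53 deficient 3. Of 7 heat shock genes, markers of another stress response, 4 had their highest value of all 12 libraries there: Hspa1a was at 14365 against at most 7649 elsewhere, Hspa1b at 30413 against 25512, Dnajb1 at 9681 against 6248 and Hsp90aa1 at 68868 against 65029. The mean log2 level of the heat shock genes, 14.5, was the highest of the 12, with 14.4 and 14.3 in miR-34a deficient 3 and 2. Their sum was 274933, against 95640 and 100785 in the other p53 deficient libraries and 305993 and 266267 in miR-34a deficient 3 and 2. The mean log2 level of the members was 12.0 in miR-34a deficient 3 and 12.1 in miR-34a deficient 2. The part of position, cell content or the heat shock response in the excess was not tested.

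Among further immediate early genes, 6 of 12 transcription factor genes and 10 of 20 effector genes also had their highest value in p53 deficient 2. So did 4 of 10 other AP-1 and small MAF genes. The share of all tested genes was 12.2%. The lowest value of 2 effector genes, Ier5l and Gadd45b, was also in that library. Of the 12 transcription factor genes none passed in any of the 7 tests by limma, and in p53 against miR-34a deficient tumours 6 of 12 had an unadjusted p under 0.05, all higher, where 23.0% of all genes had one in either direction. The smallest p there belonged to Csrnp1, a nuclear factor induced by AXIN and cytokines, at 2.38 ± 0.73 (adjusted p = 0.0913), with 4067 in p53 deficient 2 and 129 to 1641 elsewhere, and to the growth gene Myc at 0.54 ± 0.18 (adjusted p = 0.104). In double against p53 deficient tumours Klf4 and Klf10, relatives of Klf6, came closest at -1.93 ± 0.43 and -0.58 ± 0.15 (limma, adjusted p = 0.0777 and 0.112). Klf4, a factor of differentiated colon epithelium, was at 1168, 3949 and 2349 in double deficient and at 6081, 8836 and 11251 in p53 deficient tumours, without overlap.

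Of 20 further effector genes of the class 1 fell and 1 rose in the 7 tests. Mcl1, an inhibitor of apoptosis, fell by 0.70 ± 0.12 in double deficient against wt tumours (limma, adjusted p = 0.0258), from 21825, 23910 and 23089 to 12846, 15953 and 13580. Nfkbiz, a regulator of NF-kappaB target genes, rose by 0.80 ± 0.18 in p53 against miR-34a deficient tumours (limma, adjusted p = 0.0389), with 5384, 5687 and 5846 against 3172, 3936 and 2706. Mcl1 passed under 15 of 24 alternatives (adjusted p up to 0.146) and Nfkbiz under 12 of 24 (adjusted p up to 0.136). Both calls were lost without some libraries of their own groups: Mcl1 without wt 1, wt 2, wt 3, double deficient 1 or double deficient 3, and Nfkbiz without any of the 3 miR-34a deficient libraries, p53 deficient 2 or p53 deficient 3. Nfkbiz was also lost without wt 1, double deficient 2 or double deficient 3, which enter only the spread. Ier5l, a relative of the IER genes, moved against the members, at -1.35 ± 0.34 in p53 against miR-34a deficient tumours (adjusted p = 0.0546) and at 1.32 ± 0.34 in double against p53 deficient ones (adjusted p = 0.109). Sgk1, a kinase of sodium transport, was at -0.95 ± 0.25 in the latter (adjusted p = 0.114).

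The 10 other AP-1 and small MAF genes had no member passing by limma in any of the 7 tests. Fosl1, a FOS relative induced later, and Jdp2, a repressor of AP-1, came closest in p53 against miR-34a deficient tumours, at 1.89 ± 0.57 and 1.20 ± 0.48 (adjusted p = 0.0879 and 0.168). Fosl1 was at 10088 in p53 deficient 2 and at 865 to 4253 in the other 11. In double against p53 deficient tumours the smallest p belonged to Batf3 at 0.84 ± 0.33 and Fosl2 at -0.45 ± 0.18 (adjusted p = 0.254 and 0.266).

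Upstream of the class, none of 7 genes of SRF, its partners and CREB and none of 11 MAP kinase genes passed by limma in any of the 7 tests. In double against p53 deficient tumours the closest were Elk4, a partner of SRF, at -0.68 ± 0.24 (adjusted p = 0.214), the SRF coactivator Mkl1 at 0.32 ± 0.12 (adjusted p = 0.230), the stress kinase Mapk9 at -0.52 ± 0.20 (adjusted p = 0.257) and Rps6ka3 at -0.32 ± 0.14 (adjusted p = 0.311). In p53 against miR-34a deficient tumours they were Mkl1 at -0.26 ± 0.12 (adjusted p = 0.213), Elk3 at -0.54 ± 0.29 (adjusted p = 0.278), Mapk8 at 0.45 ± 0.22 (adjusted p = 0.256) and Mapk14 at -0.22 ± 0.12 (adjusted p = 0.268). The summed value of the MAP kinase genes was between 74654 and 85680 in all 12 libraries. Activity of these kinases, which rests on phosphorylation, is not measured by RNA.

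Across the 12 libraries, the genes closest in pattern to the mean log2 level of the members were sought among 11897 other named genes (without Gm and Rik symbols) whose mean value reached 100, as a description. The orphan receptor gene Nr4a1, itself an immediate early gene, came first with Pearson r = 0.98, and r = 0.93 over the 11 libraries without p53 deficient 2. Its value was 45371 in that library and 1896 to 8470 in the others. Hbegf, a ligand of the EGF receptor, followed at r = 0.95 (0.85 without that library), then the polarity gene Pard6b at 0.95 (0.85), the pseudokinase gene Trib1 at 0.94 (0.85) and the mitochondrial carrier gene Slc25a25 at 0.93 (0.86). These points share their libraries and the normalization.

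**Figure D5:**
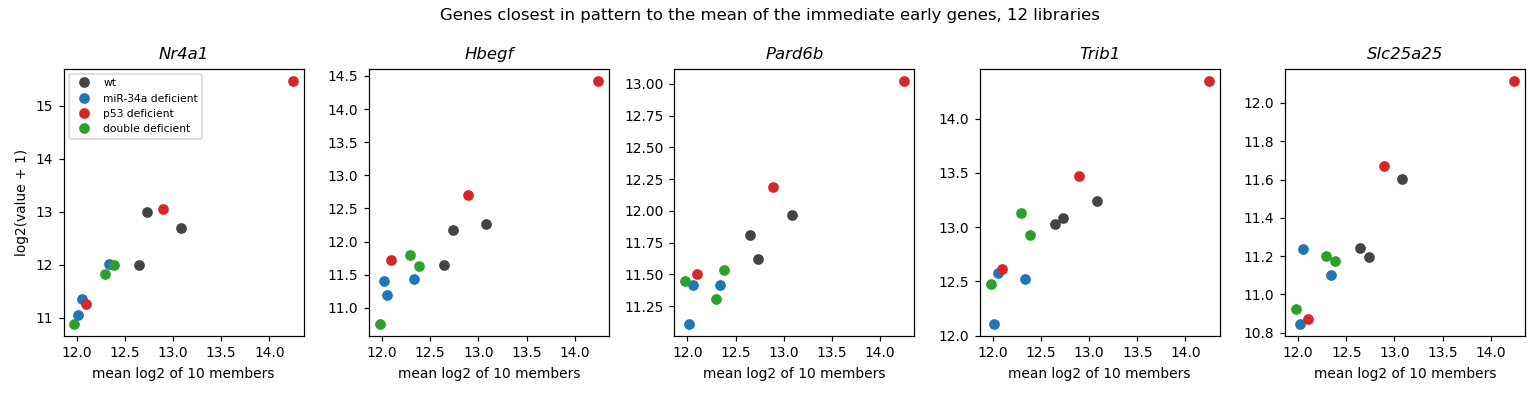
Log2(value + 1) of the 5 genes closest in pattern against the mean log2 level of the 10 members; each point is 1 of 12 libraries, coloured by genotype. The point at the upper right of each panel is p53 deficient 2, and the other 11 lie between 12.0 and 13.1 on the horizontal axis.

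Among the members themselves the pairs were unequal over the 12 libraries. Fos with Atf3 had the highest Pearson r, 0.95, and Fos with Fosb and Fosb with Atf3 had 0.91 and 0.90. Without p53 deficient 2 these 3 pairs were at 0.84, 0.81 and 0.83. The pairs of Jun lay between -0.38 (with Klf6) and 0.21 (with Egr1), and without p53 deficient 2 between -0.70 (with Klf6) and 0.060 (with Ier3). Ier3 was nearest to Junb with all libraries (0.46), and without p53 deficient 2 to Dusp1 (0.81), Egr1 (0.78) and Junb (0.75). Klf6 with Egr1 went from 0.55 to 0.08 and Klf6 with Dusp1 from 0.58 to 0.14 when that library was left out.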

How the data were processed

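RNA sequencing of 12 colon tumour libraries was taken as deposited. The authors deposited 1 table of score values per gene symbol, that is, expression values normalized between libraries and rounded to whole numbers. Per the submitters' processing notes the build was mm10. How reads were aligned, counted and normalized is not given in the sources used here. Upper quartiles lay between 1905 and 1982.25 in all libraries, so the values are not counts and neither depth nor counting error is known. Column sums ran from 45310209 to 101121673. Xist alone held 52.8% of the largest sum, that of miR-34a deficient 1, and 23.2% of that of wt 1.

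Values were taken as log2(value + 1) without rescaling. The 21322 genes whose mean reached 1 entered limma 3.58.1 (R 4.3.3; 1 mean per genotype, all 12 libraries, 8 residual degrees of freedom, trend in the prior variance), with Benjamini-Hochberg adjustment over all of them. The procedure was tested on simulated data. The spread of the libraries around their genotype means had 7 dimensions where 8 were expected (last singular value 0.179), so 1 direction is missing from the values, and a fit with it as a covariate was an alternative. The members, gene lists and tests were chosen with earlier results of these data known. Named genes are the 10 members in all comparisons, list genes that passed, the 2 of each pathway list with the smallest p in the 2 comparisons where a member passed, and the 5 genes with the highest r. The markers Adgre1 and Ms4a1 were not matched in the table. Positions are from GENCODE M21 (GRCm38). Alternatives were the pseudocount, the filter, 3 rescalings, robust moderation, only the groups compared, covariates and leaving out each library. Another left out miR-34a deficient 1 and p53 deficient 1 together, grouped by a run code that the sample titles do not give.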

Additional observations from a re-analysis of the deposited data

Results flagged for a closer look

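For Klf6, the differences that go with p53 deletion had opposite signs without and with miR-34a deletion. Every p53 deficient library was above every wt library (difference 0.59 ± 0.18), and every double deficient library was below every miR-34a deficient one (-0.68 ± 0.18). The test of the difference itself, the interaction, was -1.27 ± 0.25 (limma, adjusted p = 0.259) and did not pass; without p53 deficient 2 it was -1.04 ± 0.17 (adjusted p = 0.157). For Elk4, which encodes a partner of SRF, the differences that go with miR-34a deletion had opposite signs without and with p53 deletion. Every miR-34a deficient library was above every wt library (0.99 ± 0.24) and every double deficient library below every p53 deficient one (-0.68 ± 0.24). Its values were 898, 1606 and 1460 in wt, 3320, 2164 and 2298 in miR-34a deficient, 4102, 2807 and 3468 in p53 deficient and 2295, 2148 and 1970 in double deficient tumours. Its interaction of -1.67 ± 0.34 did not pass either (limma, adjusted p = 0.277). Under 23 alternatives the Klf6 interaction lay between -1.44 and -1.04 and never passed (limma, adjusted p 0.112 to 0.854). All 4 Y-linked genes had an interaction below 0 with an unadjusted p under 0.05 by limma, with a median of -5.11, and none passed. Both interactions include the difference of double from p53 deficient tumours, which cannot be told apart from the Y-linked levels.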

How the results depend on the processing

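The count of members passing (adjusted p under 0.05 of 10, by limma) in double deficient against wt tumours was 0, and became 1 with a mean value of at least 50 or quantile normalization and 2 with only the groups compared; without each library it was 0 to 2. Against miR-34a deficient tumours it was 0, and 1 with only the groups compared, and 0 to 1 without each library (1, Klf6, without p53 deficient 2). In double against p53 deficient tumours it was 1, and 0 with only the groups compared or with a covariate for the Y-linked level, and stayed at 1 without any 1 library. In p53 against miR-34a deficient tumours it was 1, and 0 with only the groups compared, with the removed direction or with a covariate for the Y-linked level; without each library it was 0 to 4, and 4 (Egr1, Ier2, Klf6 and Dusp1) without p53 deficient 1. In miR-34a deficient or p53 deficient against wt tumours and in the interaction it was 0 under all alternatives. The cause of the changed counts was not tested, and fits that leave out groups or libraries also have fewer samples. With a replicate block every count was the same as without it. Whether the replicate numbers pair the libraries is not stated in the labels. The deviations of 7 of 18 pairs with 1 number correlated above 0.1, and 4 of 12 libraries correlated best with their own number. With 3 libraries a genotype, this check cannot exclude a pairing.

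Differences of members, none of them called, changed sign in some settings. Fosb in p53 deficient against wt tumours was 0.60 when miR-34a deficient 1 and p53 deficient 1 were left out together. Ier3 in double against p53 deficient tumours was 0.16 with the Y-linked covariate, and Jun in p53 against miR-34a deficient tumours was 0.043 with median-of-ratios rescaling. Leaving out each library in turn gave ranges that cross 0. In p53 deficient against wt these ranges were Fos -0.75 to 0.82, Fosb -1.73 to 0.60, Junb -0.045 to 0.58, Egr1 -0.29 to 1.49, Atf3 -0.73 to 1.25, Ier2 -0.25 to 0.57, Ier3 -0.20 to 0.52. In double deficient against wt these ranges were Junb -0.36 to 0.075, Egr1 -0.39 to 0.12, Ier3 -0.12 to 0.44, Dusp1 -0.11 to 0.29. In double deficient against miR-34a deficient these ranges were Atf3 -0.53 to 0.026. In double deficient against p53 deficient these ranges were Egr1 -1.70 to 0.088, Ier2 -0.77 to 0.043, Ier3 -0.34 to 0.29. In p53 deficient against miR-34a deficient these ranges were Fos -0.021 to 1.56, Jun -0.22 to 0.13. The rescalings moved the median of all genes most in p53 against miR-34a deficient tumours, from -0.10 as deposited to 0.04 with quantile normalization. With no counts, what depth limits is unknown, and 3 libraries a genotype limit the precision.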
